A study of Homo sapiens with 13 samples.

Results

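The genes described here encode receptors with which T cells find tissues, hold on to them and read survival cytokines there. They are the chemokine receptors CXCR4, CCR7 and CCR9, the sphingosine 1-phosphate receptor S1PR1, the adhesion molecules CD44, ITGA4 and ITGB1, and the cytokine receptor chains IL7R and IL2RG. Every probe that carries 1 of these 9 gene names, of 25940 names in the array design, was taken, control probes aside. This gave 12 of the 34127 probes on the array. ITGA4 is read by 3 probes, IL2RG by 2 and each other gene by 1. All 12 passed the filter on dim probes, which left 22751 probes, although CCR9 passed it through a single group.

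T cells enter lymph nodes with CCR7, are held in bone marrow by CXCR4, are drawn to the gut and thymus by CCR9, and leave lymphoid tissue along a gradient of sphingosine 1-phosphate that S1PR1 reads. CD44 binds hyaluronan, and ITGA4 pairs with ITGB1 into the integrin VLA-4, a receptor for VCAM1 and fibronectin. IL7R pairs with IL2RG, the common gamma chain, into the receptor for interleukin 7, which signals through JAK1, JAK3 and STAT5 and is a survival signal of developing T cells and of many T cell leukemias.

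The CCRF-CEM line, human leukemic lymphoblasts of the T lineage, was studied as parental cells (CEM PA) and as a population selected under rising doses of FK866 until it was resistant to 100 nM (CEM RES). FK866 inhibits NAMPT, the enzyme that makes NAD from nicotinamide. Both lines were given DMSO (mock) or 5 nM FK866 for 48 h, and total RNA was hybridized to 1-colour Agilent arrays, 3 of mock-treated CEM PA, 2 of CEM PA with FK866, 4 of mock-treated CEM RES and 4 of CEM RES with FK866. The arrays of a group are labelled as biological replicates. CEM RES was derived by exposure to FK866, so the mock-treated resistant cells were not cells that had never met the drug, and they stand for a single selected population. By the study's methods, CEM RES was routinely cultured with 100 nM FK866, a higher dose than the 5 nM given here. Those methods do not say whether the drug was removed before the treatments used for the arrays. Values are the log2 of the background-corrected spot signal after quantile normalization over the 13 arrays, and a difference of 1 on this scale is a doubling of the signal. Levels are compared between groups for the same probe, and where 2 probes of ITGA4 are subtracted on each array, only the change of that difference between groups is read.

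Of 43118 spots per array that were not controls, 26457 to 33239 were well above background, and 0 were saturated. All 14 markers of the T lineage that were examined, among them CD3D, CD3E, CD7, CD1A and PTCRA, were well above background on all 13 arrays. Of 9 epithelial and stromal markers, KRT8, KRT18 and VIM were so on all 13 arrays, KRT19 on 8, DCN on 2, and EPCAM, CDH1, COL1A1 and COL3A1 on none. On all 13 arrays were also 4 of 7 markers of the B lineage, 3 of 6 myeloid and 4 of 5 erythroid markers, while CD22 of the B lineage was above background on none. The CEM PA arrays were scanned in 2 sessions and all CEM RES arrays in another, as the scan dates in the file headers give them, so a difference between the lines and a difference between sessions cannot be told apart. In RNA from a whole culture, fewer cells with a transcript and less of it per cell cannot be told apart either.

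The probes are 60 bases long, and 3 of them are shown because, from general knowledge of these proteins and not from an annotation used here, they fall in coding sequence with a known role. The probe for ITGA4 that is called probe 2 below (chr2:182399600-182399659, hg19, + strand) is placed in the segment that crosses the membrane, and so is most of probe 1 of IL2RG (chrX:70328480-70328539, hg19, − strand). The ITGB1 probe (chr10:33200507-33200566, hg19, − strand) is placed in the cysteine-rich stalk outside the cell. Each is given 5′ to 3′ as the array holds it, with no letters in capitals.
ITGA4 probe 2: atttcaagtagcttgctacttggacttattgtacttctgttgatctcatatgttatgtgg
IL2RG probe 1: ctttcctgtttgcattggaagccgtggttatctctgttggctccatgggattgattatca
ITGB1: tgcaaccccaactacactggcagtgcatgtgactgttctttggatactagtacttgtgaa

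Between the lines most of these receptors differed, while FK866 moved few of them. Mock-treated CEM RES had more signal than mock-treated CEM PA for IL7R, S1PR1, IL2RG probe 1 and ITGA4 probe 1, and less for CD44, ITGA4 probe 3, CCR7 and CXCR4. In limma, 8 of the 12 probes, from 7 genes, passed an adjusted p of 0.05 in this comparison, 4 higher and 4 lower, against 47.6% of all probes tested. Groups did not overlap for 9 of the 12 probes, against 48.8% of all probes. With FK866 in both lines, 8 of 12 passed, 5 higher and 3 lower, against 36% of all probes, and 10 did not overlap, against 57.8%. These shares describe 12 probes of 9 genes, and genes of 1 pathway are not independent of each other. The adjusted p values are from limma's moderated test with Benjamini-Hochberg adjustment over all 22751 probes.

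The response to FK866 was smaller. In CEM PA, S1PR1 alone passed among the 12 probes, against 1.53% of all probes, and it rose. S1PR1 and CCR7 passed the double threshold of the study's methods, an unadjusted p under 0.05 with an absolute log2 difference over 0.75, against 6.69% of all probes. Mock and FK866 arrays of CEM PA did not overlap for 7 of 12 probes, against 34.8% of all probes with these 3 and 2 arrays. In CEM RES, limma called 0 of the 12 probes and 0% of all probes. At an unadjusted p under 0.05 there was 1 member probe and 1171 probes in all. None of the 12 passed the double threshold in CEM RES, against 1.3% of all probes, and for none were the groups apart, against 2.91%. The comparison of FK866 with mock in CEM PA and that of mock-treated CEM RES with mock-treated CEM PA share the 3 mock arrays of CEM PA.

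**Figure D1:**
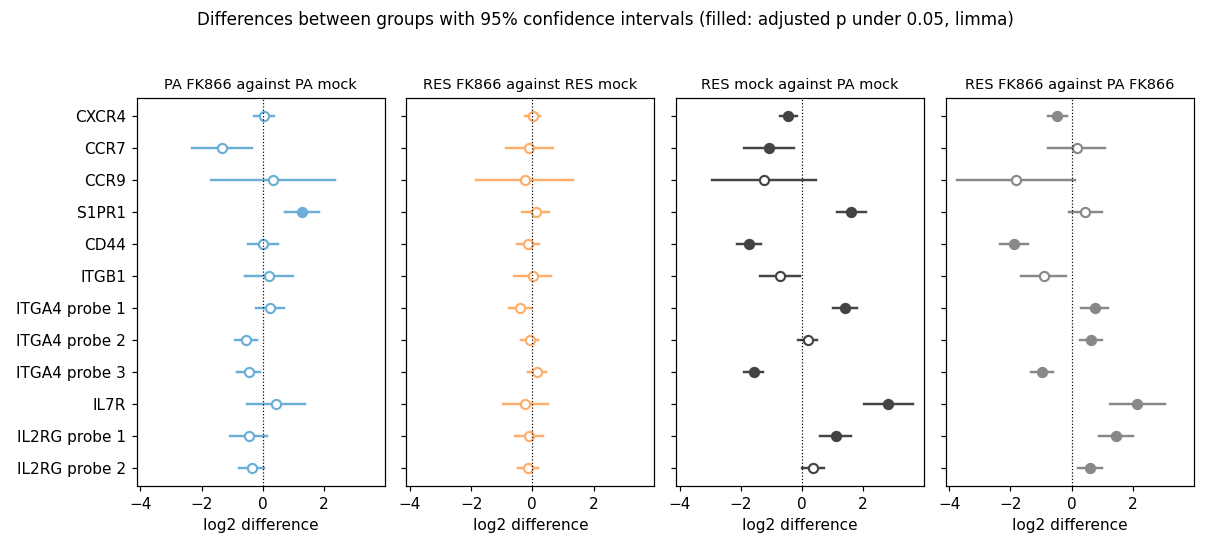
Log2 difference of each of the 12 receptor probes (rows) in 4 comparisons (panels), with 95% confidence intervals from limma; filled points passed an adjusted p of 0.05. In CEM RES every interval for FK866 except that of ITGA4 probe 1 spans 0, and the intervals between the lines reach from IL7R at 2.82 to CD44 at -1.73 in mock-treated cells.

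CXCR4, the receptor for CXCL12, was lower in CEM RES by a small and even amount. Its probe is printed at 10 places on the array (chr2:136871953-136872012, hg19, − strand), and the SD among those spots on an array was 0.030 to 0.091. The signal in mock-treated CEM PA was 15.84, 15.92 and 16.15, and with FK866 it was 15.96 and 16.03. In CEM RES it lay from 15.45 to 15.63 on the 4 mock arrays (15.46, 15.63, 15.54 and 15.45) and was 15.61, 15.57, 15.48 and 15.44 with FK866. Every CEM PA array was above every CEM RES array. The difference between the lines was -0.45 (SE 0.13, limma adjusted p = 0.0111) in mock-treated cells, a signal 1.36-fold lower, and -0.47 (SE 0.14, adjusted p = 0.0225) with FK866. Scaling each array to its 75th percentile took the first to -0.26 (adjusted p = 0.213) and the second to -0.49 (adjusted p = 0.0543), and that scaling moved the median of all probes in this comparison from 0.04 to 0.17. Without FK866 array 1 or 2 of CEM PA the second missed the threshold as well (adjusted p = 0.0979 and 0.132). FK866 left the signal within the spread of the arrays in both lines, with differences of 0.03 (95% interval -0.30 to 0.35) in CEM PA and 0.01 (-0.25 to 0.26) in CEM RES.

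CCR7, the receptor for CCL19 and CCL21, was highest in mock-treated CEM PA. The probe (chr17:38710060-38710119, hg19, − strand) gave 14.46, 14.14 and 14.98 there. With FK866 the CEM PA arrays were at 13.52 and 12.86, both below all 3 mock arrays. In CEM RES the arrays were at 13.87, 13.15, 12.75 and 14.05 (mock) and at 13.66, 12.80, 12.94 and 14.04 (FK866), a range of over 1 in either group. The means were thus 14.53 in mock-treated CEM PA, then 13.46, 13.36 and 13.19 in mock-treated CEM RES, CEM RES with FK866 and CEM PA with FK866, and those 3 lay within each other's range. Mock-treated CEM RES was lower than mock-treated CEM PA by 1.07 (log2 difference -1.07, SE 0.38, limma adjusted p = 0.0328), a signal 2.10-fold lower. This call ended under 7 of 27 alternatives, among them without mock array 1 or 3 of CEM PA (adjusted p = 0.0646 and 0.130) and without mock array 2 or 3 of CEM RES (0.0743 and 0.0878).

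For CCR7 the FK866 difference in CEM PA was -1.33 (SE 0.45, unadjusted p = 0.0114), 2.52-fold less signal, and it missed the adjusted threshold (limma adjusted p = 0.181). With the replicate number as a block, since arrays of equal number deviated together, it was -1.11 and passed (adjusted p = 0.0276). It passed under this 1 of 28 alternatives and missed the threshold under the other 27. Within each scan session the difference had the same sign, -0.93 in the first and -1.70 in the second. In CEM RES it was -0.10 (95% interval -0.85 to 0.66). There the arrays of equal number lay close to each other while the numbers lay apart, and FK866 minus mock was -0.21, -0.35, 0.19 and -0.01 for numbers 1 to 4. The difference between the responses of the lines was 1.24 (unadjusted p = 0.0492, adjusted p = 0.410). The lines exposed to FK866 differed by 0.17 (95% interval -0.76 to 1.09, adjusted p = 0.788).

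CCR9, the receptor for CCL25, was near background. Its probe (chr3:45944488-45944547, hg19, + strand) was well above background on 7 of 13 arrays, and it entered the fit because both arrays of CEM PA with FK866 were. These gave 4.49 and 4.95. The mock arrays of CEM PA were at 6.31, 4.25 and 2.60, the last not well above background. In CEM RES the values were 3.58, 4.34, 2.31 and 2.39 (mock) and 1.79, 4.11, 2.64 and 3.09 (FK866), and 3 of these 8 arrays were well above background. The spread in mock-treated CEM PA, an SD of 1.86, exceeded every difference between groups, and limma called none of them.

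S1PR1, the receptor with which T cells leave lymphoid organs, was lowest in mock-treated CEM PA and higher in each of the other 3 groups. The probe (chr1:101706321-101706380, hg19, + strand) gave 7.34, 7.30 and 6.89 on the mock arrays of CEM PA and 8.60 and 8.32 with FK866. In CEM RES the mock arrays were at 8.83, 8.94, 8.77 and 8.59, and the FK866 arrays at 8.31, 9.32, 9.03 and 8.95. No array outside the mock-treated CEM PA group was below 8.31, and none inside it was above 7.34. The means of the other 3 groups were 8.46 in CEM PA with FK866, 8.78 in mock-treated and 8.90 in FK866-treated CEM RES, and their ranges overlapped.

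FK866 raised S1PR1 in CEM PA by 1.29 (SE 0.26, limma adjusted p = 0.0333), a signal 2.44-fold higher. The rise was 1.27 in the first scan session and 1.23 in the second. The call is a narrow one. Leaving out any 1 of the 5 CEM PA arrays kept the difference between 1.14 and 1.43 but ended the call, with an adjusted p of 0.257 and 0.150 without FK866 array 1 and 2, and of 0.0528, 0.0780 and 0.0789 without mock array 1, 2 and 3. In CEM RES the difference was 0.12 (95% interval -0.32 to 0.56). The responses of the lines differed by -1.17 (SE 0.33, limma unadjusted p = 0.00407), which missed the adjusted threshold (adjusted p = 0.171), and 0.413% of all probes passed it in that comparison. None of the 12 receptor probes did so, while 4 had an unadjusted p under 0.05, namely S1PR1, CCR7, ITGA4 probe 1 and ITGA4 probe 3.

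Between the mock-treated lines, S1PR1 was higher in CEM RES by 1.61 (SE 0.22, limma adjusted p = 0.000122), 3.05-fold more signal, and it passed under all 27 alternatives of processing and left-out arrays. With FK866 in both lines the difference was 0.44 (95% interval -0.10 to 0.98, adjusted p = 0.187).

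**Figure D2:**
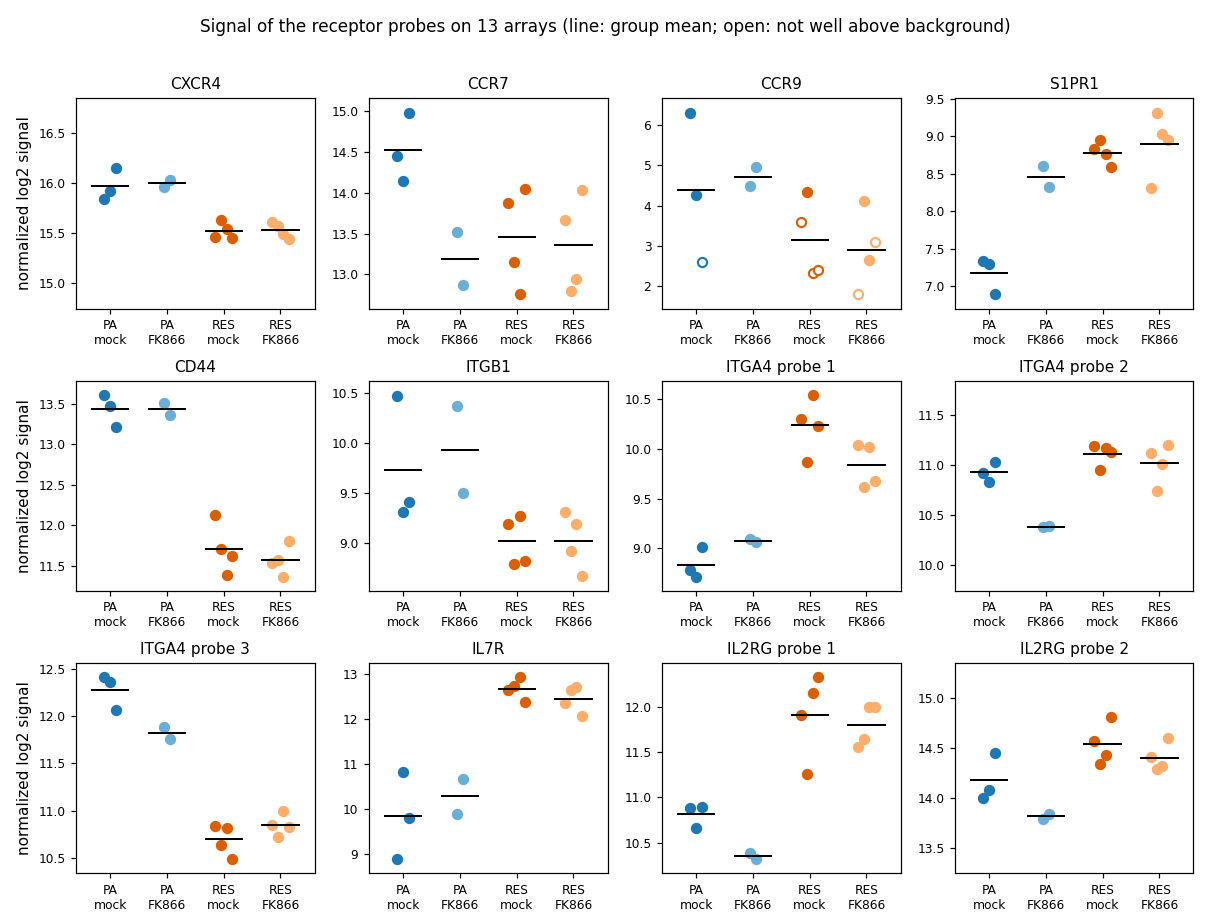
Normalized log2 signal (y axis, scaled for each probe) of the 12 receptor probes on each of the 13 arrays, by group; the line is the group mean and open circles are arrays on which the probe was not well above background. S1PR1 stands between 6.89 and 7.34 in mock-treated CEM PA and between 8.31 and 9.32 in the other groups, and CD44, IL7R and ITGA4 probes 1 and 3 separate the lines on every array.

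CD44, the hyaluronan receptor, was lower in CEM RES on every array and did not respond to FK866 beyond the spread of the arrays. The probe (chr11:35253812-35253871, hg19, + strand) gave 13.61, 13.47 and 13.21 in mock-treated CEM PA and 13.51 and 13.37 with FK866. In CEM RES it gave 12.12, 11.70, 11.38 and 11.62 (mock) and 11.53, 11.57, 11.36 and 11.80 (FK866). The 2 lines were thus more than 1 apart on every array. The difference was -1.73 (SE 0.18, limma adjusted p = 2.38e-05) in mock-treated cells, 3.31-fold less signal, and -1.87 (SE 0.21, adjusted p = 7.21e-05) with FK866. FK866 minus mock was 0.01 (95% interval -0.47 to 0.49) in CEM PA and -0.14 (-0.51 to 0.23) in CEM RES.

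ITGB1, the beta chain that pairs with ITGA4, was lower in CEM RES by an amount that the test did not call. Its probe is printed at 10 places, and the SD among them on an array was 0.046 to 0.123. Mock-treated CEM PA gave 10.47, 9.31 and 9.40 and CEM PA with FK866 gave 10.36 and 9.49. The first value of each belongs to the first scan session, and the second session was lower by 1.01 (unadjusted p = 0.00134, limma adjusted p = 0.147), a gap far wider than the spread among the spots. In CEM RES, scanned in the third session, the arrays were at 9.18, 8.78, 9.26 and 8.82 (mock) and 9.31, 8.91, 9.19 and 8.67 (FK866), all below those of CEM PA in the same treatment. The line difference was -0.71 (SE 0.30, adjusted p = 0.0660) in mock-treated cells and -0.91 (SE 0.34, adjusted p = 0.0530) with FK866. With the replicate block these became -0.71 (adjusted p = 0.0416) and -0.83 (adjusted p = 0.0414) and passed, as they did under 3 and 8 of the 27 alternatives, this one included.

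ITGA4, the alpha chain of VLA-4, gave a different answer at each of its 3 probes, which follow one another along the gene. Probe 1 (chr2:182322335-182322394, hg19, + strand) has the lowest coordinates, probe 2 is the one printed above, and probe 3 (chr2:182402275-182402334) lies downstream of it. The transcript each probe was designed for carries the same accession in the array design. Probe 1 gave 8.78, 8.71 and 9.01 in mock-treated CEM PA and 9.09 and 9.06 with FK866, and 10.31, 9.87, 10.55 and 10.24 in mock-treated CEM RES and 10.04, 9.61, 10.02 and 9.68 with FK866. All CEM RES arrays were above all CEM PA arrays, with a difference of 1.41 (SE 0.18, limma adjusted p = 7.49e-05) in mock-treated and 0.76 (SE 0.20, adjusted p = 0.0120) in FK866-treated cells. Without FK866 array 1 or 2 of CEM PA the second missed the threshold (adjusted p = 0.0730 and 0.0732).

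Probe 3 of ITGA4 ran the other way. It gave 12.41, 12.36 and 12.06 in mock-treated CEM PA, 11.89 and 11.76 with FK866, 10.84, 10.64, 10.82 and 10.49 in mock-treated CEM RES and 10.85, 10.72, 10.99 and 10.82 with FK866. All CEM PA arrays were above all CEM RES arrays, by 1.58 in mock-treated cells (log2 difference -1.58, SE 0.14, limma adjusted p = 7.99e-06) and by 0.98 with FK866 (-0.98, SE 0.16, adjusted p = 0.000821). Probe 2, between them, gave 10.92, 10.83 and 11.04, then 10.39 and 10.39, in CEM PA, and from 10.95 to 11.20 (mock) and from 10.75 to 11.21 (FK866) in CEM RES. The mock-treated lines overlapped there, with a difference of 0.18 (95% interval -0.12 to 0.49, adjusted p = 0.301). With FK866 probe 2 was higher in CEM RES by 0.63 (SE 0.16, adjusted p = 0.00901), which without FK866 array 1 or 2 of CEM PA had an adjusted p of 0.0665 and 0.0584.

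The difference between ITGA4 probes 3 and 2 on each array is given as a description with no test, since it was chosen after the values were seen. Probe 3 minus probe 2 was 1.35 ± 0.28 (SD, n = 3) in mock-treated CEM PA and -0.42 ± 0.15 (SD, n = 4) in mock-treated CEM RES, and with FK866 it was 1.43 (n = 2) and -0.17 (n = 4). The lines did not overlap in either treatment. Averaged over its 3 probes, ITGA4 differed by 0.00 between the mock-treated lines (limma adjusted p = 0.985), so a single value for the gene hides opposite calls. FK866 in CEM PA gave differences of 0.24, -0.54 and -0.45 at probes 1, 2 and 3, with no overlap between the groups at any of them and none past the adjusted threshold (adjusted p = 0.689, 0.145 and 0.239). In CEM RES they were -0.40, -0.09 and 0.15. The first was the receptor probe with an unadjusted p under 0.05 there (0.0307), and its limma adjusted p was 0.938.

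**Figure D3:**
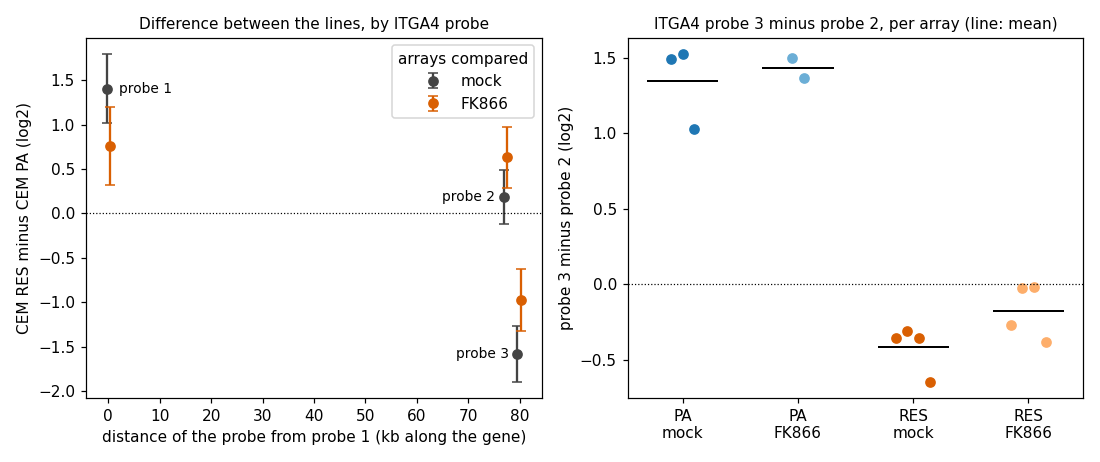
Left, difference between CEM RES and CEM PA (log2, 95% interval) at each ITGA4 probe against its distance in kb from probe 1 along the gene, for mock and FK866 arrays. Right, probe 3 minus probe 2 (log2) on every array with the group mean; the CEM PA arrays sit between 1.03 and 1.52 and the CEM RES arrays between -0.64 and -0.02.

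IL7R, the alpha chain of the interleukin 7 receptor, had the widest difference between the lines among the 12 probes. The probe (chr5:35876781-35876840, hg19, + strand) gave 8.90, 10.82 and 9.80 in mock-treated CEM PA and 9.90 and 10.66 with FK866. In CEM RES it gave 12.64, 12.72, 12.92 and 12.37 (mock) and 12.34, 12.63, 12.71 and 12.06 (FK866). Every CEM RES array was above every CEM PA array by at least 1 on this scale. The difference was 2.82 (SE 0.36, limma adjusted p = 8.38e-05) in mock-treated cells, 7.08-fold more signal, and 2.15 (SE 0.41, adjusted p = 0.00193) with FK866, and both passed under all 27 alternatives. The CEM PA arrays themselves spread widely, the second scan session being higher by 1.13 than the first (unadjusted p = 0.0262, adjusted p = 0.231). FK866 minus mock was 0.44 (95% interval -0.51 to 1.39) in CEM PA and -0.23 (-0.96 to 0.50) in CEM RES.

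IL2RG, the gamma chain shared by the receptors of interleukins 2, 4, 7, 9, 15 and 21, moved the same way at both probes and further at the first. Probe 1 gave 10.88, 10.67 and 10.90 in mock-treated CEM PA and 10.39 and 10.32 with FK866. In CEM RES it gave 11.91, 11.25, 12.15 and 12.33 (mock) and 11.56, 11.65, 12.00 and 12.00 (FK866), all above every CEM PA array. The differences were 1.10 (SE 0.23, limma adjusted p = 0.00201) in mock-treated cells and 1.45 (SE 0.26, adjusted p = 0.00127) with FK866. Probe 2 (chrX:70327271-70327330, hg19, − strand), downstream of probe 1 on the gene's strand, gave 14.00, 14.09 and 14.46, then 13.79 and 13.85, in CEM PA, and 14.58, 14.34, 14.43 and 14.82, then 14.41, 14.29, 14.32 and 14.61, in CEM RES. Mock arrays overlapped at probe 2, with a difference of 0.36 (SE 0.16, adjusted p = 0.0828), and FK866 arrays did not, with 0.59 (SE 0.18, adjusted p = 0.0246). The latter missed the threshold without FK866 array 1 or 2 of CEM PA (adjusted p = 0.140 and 0.0963) and without FK866 array 4 of CEM RES (0.0541). FK866 minus mock in CEM PA was -0.46 and -0.36 at probes 1 and 2 (adjusted p = 0.492 and 0.426), with no overlap between the groups at either.

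Around these receptors, genes of their pathways were read from lists, each gene by its probe with the highest mean signal. Among partners of IL7R and IL2RG, IL2RB, the beta chain of the receptors for interleukins 2 and 15, was lower in mock-treated CEM RES (7.68 in CEM PA and 4.40 in CEM RES, difference -3.28, limma adjusted p = 5.43e-05), and 2 of the 4 CEM RES arrays were well above background. IL4R, the alpha chain for interleukin 4, was lower too (12.55 and 11.39, -1.16, adjusted p = 0.000323). CRLF2, which pairs with IL7R into the receptor for TSLP, was higher (4.37 and 6.82, 2.45, adjusted p = 0.00024), and so was IL15RA (6.19 and 7.94, 1.74, adjusted p = 1.38e-05). With normexp background correction these differences were smaller for the dim genes, -1.56 for IL2RB, 1.02 for CRLF2 and 1.12 for IL15RA, and all passed, and the mean of the 3 IL15RA probes was at 0.41 (adjusted p = 0.0275). The remaining alpha chains did not pass, with differences of 0.46 for IL21R, -0.39 for IL9R and -0.69 for IL2RA, the last being near background. Of the 15 cytokine receptor chains tested, 2 were higher and 6 lower, TGFBR1 (-1.38, and -0.35 with normexp) and IFNGR2 (-1.21, -0.48 with normexp, and -0.93 with an adjusted p of 0.0923 without mock array 3 of CEM PA) among the latter, a share of 53.3% against 47.6% of all probes, with a list median of -0.55 against 0.04.

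Downstream of the common gamma chain, 15 JAK and STAT genes were tested, and 0 were higher and 7 lower. That is 46.7%, about the 47.6% of all probes, with a list median of -0.59. JAK3, the kinase bound to IL2RG, gave 13.59 in CEM PA and 12.38 in CEM RES (-1.21, limma adjusted p = 0.00369), and JAK1, bound to IL7R, gave 8.41 and 7.67 (-0.74, adjusted p = 0.00268). The 2 kept probes of JAK3 disagreed, and their mean differed by -0.20 (adjusted p = 0.420). STAT5B, which both activate, was lower by 1.67 (-1.67, adjusted p = 7.39e-05), while STAT5A was at 0.06. SOCS3, a feedback inhibitor (-1.95, adjusted p = 8.66e-05), and the kinase PIM1, a STAT5 target (-1.47, adjusted p = 0.00206), were lower as well, SOCS3 by less with normexp background correction (-0.63, adjusted p = 8.72e-05). IL7R and IL2RG probe 1 were thus higher on the same arrays on which JAK1, STAT5B, SOCS3 and PIM1 were lower. With FK866 in both lines the JAK and STAT count was again 0 higher and 7 lower, and in neither line did any gene of the list pass for FK866 against mock.

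Transcription factors that control homing receptor genes were mostly lower in CEM RES. Of 10 tested, 1 was higher and 6 lower, a share of 70% against 47.6% of all probes, with a median of -0.80. KLF2, which switches on S1PR1 in resting T cells, gave 6.86 to 7.32 on the mock arrays of CEM PA and 3.91 to 4.68 on those of CEM RES, 3 of which were well above background (difference -2.76, SE 0.23, limma adjusted p = 4.37e-06). FOXO1, a regulator of KLF2, IL7R and CCR7, was lower by 0.88 (-0.88, adjusted p = 0.00747), a call that ended with 75th percentile scaling (-0.54, adjusted p = 0.174) and with normexp background correction (-0.24, adjusted p = 0.0689). RUNX3 and LEF1 were at -1.55 and -1.11 (adjusted p = 0.0116 and 0.000359), the former missing the threshold without mock array 3 of CEM PA (adjusted p = 0.0597). TCF7 was higher (1.26, adjusted p = 0.000384). In CEM PA, where FK866 raised S1PR1, KLF2 was at 7.08 without and 7.18 with the drug (0.10, limma adjusted p = 0.923) and FOXO1 at 5.37 and 5.38. Signals this dim depend on the background correction, and with normexp the line difference of KLF2 was -1.18 (adjusted p = 3.73e-06).

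The promoters of S1PR1 and IL7R, the member genes with the largest positive differences between the mock-treated lines, and of IL2RG are shown because KLF2 and FOXO1 are known to bind near such genes. The 250 bases before each start are from RefSeq (GRCh38.p14), read 5′ to 3′ along the gene's own strand, with CACCC, a core that KLF factors bind, and GTAAACA, a core that FOXO factors bind, in capitals on either strand. S1PR1 (chr1:101236769-101237018, + strand) holds 2 matches to CACCC and 0 to GTAAACA, IL7R (chr5:35856641-35856890, + strand) holds 0 of either, and IL2RG (chrX:71111578-71111827, − strand) holds 3 and 1. Of the other member promoters read, none held GTAAACA. Those of CD44 and CXCR4, both lower in CEM RES, held at least 2 matches to CACCC in each window. The windows of CCR9 held 2 each, that of ITGA4 held 1, and those of ITGB1 held 2 and 0. No promoter of CCR7 was among those read. Of 35116 RefSeq promoters, 54.7% hold CACCC and 3.0% hold GTAAACA in windows of this length. A match describes letters and is no evidence of binding.
S1PR1: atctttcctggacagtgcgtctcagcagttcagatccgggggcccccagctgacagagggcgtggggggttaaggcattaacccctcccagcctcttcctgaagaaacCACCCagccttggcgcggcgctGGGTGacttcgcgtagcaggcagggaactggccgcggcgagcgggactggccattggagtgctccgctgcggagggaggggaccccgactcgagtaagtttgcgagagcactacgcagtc
IL7R: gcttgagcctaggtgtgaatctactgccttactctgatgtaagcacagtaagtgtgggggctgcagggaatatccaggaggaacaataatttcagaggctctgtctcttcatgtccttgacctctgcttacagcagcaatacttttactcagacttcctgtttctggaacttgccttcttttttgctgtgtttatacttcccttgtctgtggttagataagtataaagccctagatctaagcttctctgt
IL2RG: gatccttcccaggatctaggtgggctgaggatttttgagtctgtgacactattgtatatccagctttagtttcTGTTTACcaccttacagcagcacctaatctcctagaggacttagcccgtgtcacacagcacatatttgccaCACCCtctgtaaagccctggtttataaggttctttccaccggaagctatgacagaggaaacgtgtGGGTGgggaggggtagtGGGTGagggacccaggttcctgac

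Of 8 other S1P genes tested, 0 were higher and 4 lower in mock-treated CEM RES, which at 50% is near the 47.6% of all probes (median -0.38). S1PR4, a receptor found mainly on lymphoid cells, gave 15.60 in CEM PA and 15.58 in CEM RES (-0.02, adjusted p = 0.945), and S1PR2 gave 9.73 and 9.60 (-0.13, adjusted p = 0.687). S1PR5 was well above background on every CEM PA array and on no CEM RES array. The probe thus passed the filter on dim probes only through CEM PA, where it is high, and its test between the lines is not read as support. Its signal was at least 2.50-fold lower in mock-treated CEM RES than in mock-treated CEM PA. That bound sets the mean of the CEM PA arrays against the dimmest signal that was well above background on each CEM RES array. It holds for the quantile normalized signal, and with normexp background correction the log2 difference of S1PR5 was -0.40. The transporter SPNS2 (-1.18, adjusted p = 0.0264) and the lyase SGPL1 (-0.99, adjusted p = 0.000418), which export and degrade the ligand respectively, were lower. Without mock array 3 of CEM PA, SPNS2 was at -0.75 and missed the threshold (adjusted p = 0.134).

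Of 16 other integrin subunits tested, 3 were higher and 5 lower, again 50% against 47.6% of all probes (median -0.12). ITGB7, the alternative beta chain of ITGA4 in gut homing, was lower (13.30 and 11.40, -1.90, limma adjusted p = 0.00175), and so were ITGB2 of LFA-1 (-1.15, adjusted p = 0.000384) and ITGAV (-1.94, adjusted p = 3.04e-05). ITGA9, a relative of ITGA4 that also pairs with ITGB1, was higher (5.11 and 7.60, 2.49, adjusted p = 8.83e-05). ITGAD was well above background on none of the mock arrays of CEM PA and passed the filter on dim probes only through other groups. Its test between the mock-treated lines is therefore not read as support. Its signal was at least 3.83-fold higher in mock-treated CEM RES. That bound holds for the quantile normalized signal, and with normexp background correction the log2 difference of ITGAD was 0.57. With the same correction it was 1.27 for ITGA9 and -1.22 for ITGAV, both past the adjusted threshold. Of 10 genes of integrin activation 2 were higher and 3 lower, also 50%, with VCL, which links talin to actin, at -0.78 (adjusted p = 0.0092).

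Among 15 other adhesion molecules 2 were higher and 3 lower, 33.3% against 47.6% of all probes (median -0.15). CD99 was higher (12.94 and 13.90, 0.96, limma adjusted p = 0.000953), and ICAM1, the ligand of LFA-1 (-1.40, adjusted p = 6.74e-05), and EZR, which ties CD44 to actin (-0.88, adjusted p = 0.00477), were lower. Of 15 other chemokine receptors 46.7% passed. Higher were 3, with CCR2 at 0.90 (adjusted p = 0.00994) and XCR1 at 0.77 (adjusted p = 0.0109), and 4 lower, with CX3CR1 at -1.80, CCR1 at -1.71 and CXCR5 at -1.51 (adjusted p = 0.000676, 0.00208 and 0.0114). With normexp background correction these 3 were at -1.03, -0.54 and -0.62, XCR1 was at 0.48, and all 4 passed. Of 15 genes of chemokine receptor signalling 2 were higher, PTK2 (1.25, and 0.64 with normexp) and PIK3CG (1.17, and 0.69 with an adjusted p of 0.0832 without mock array 1 of CEM PA), and 4 lower, 40% in all. Of 14 ligands of the members 7 were tested, and 0 were higher and 1 lower (14.3%), namely IL15 (-0.75, adjusted p = 0.00242). Of 10 housekeeping genes 2 were higher and 2 lower (40%), 1 of the lower ones by more than 0.75. ACTB, at -0.03, and GAPDH, at -0.01, were named after their values were seen.

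Among the genes of these lists, FK866 in CEM PA moved PECAM1, an adhesion molecule of leukocytes and endothelium, and IL15, a ligand of receptors that hold IL2RG, past the adjusted threshold. PECAM1 fell from 11.43 to 10.53 (-0.90, limma adjusted p = 0.0259), and IL15 rose from 9.75 to 10.64 (0.89, adjusted p = 0.0398). As with S1PR1, each call ended without either FK866 array of CEM PA, with adjusted p values from 0.126 to 0.248. The call of PECAM1 also ended without mock array 2 or 3 of CEM PA (adjusted p = 0.0794 and 0.0569), and that of IL15 without any 1 of the 3 mock arrays and with the replicate block (0.76, adjusted p = 0.0664). In CEM RES the FK866 differences of PECAM1 and IL15 were 0.00 and 0.17, and limma called none of the genes listed.

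**Figure D4:**
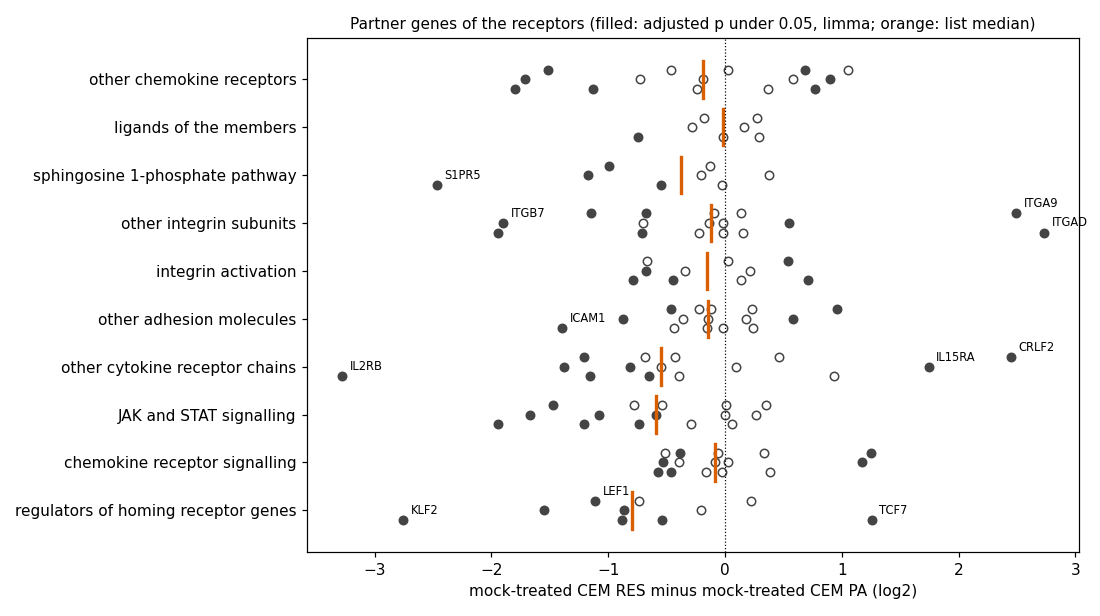
Log2 difference between mock-treated CEM RES and mock-treated CEM PA (x axis) of each tested gene in 10 lists of receptor partners (rows); filled points passed an adjusted p of 0.05 in limma and the orange bar is the list median. KLF2 at -2.76 and IL2RB at -3.28 lie at the low end, and ITGAD, ITGA9 and CRLF2 at the high end.

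The genes most like each receptor were those whose 13 values, each centred on its own mean, had the smallest root mean square difference from the receptor's, as a description over arrays that share their lines. For S1PR1 they were NRAS (0.22) and MAPK9 (0.24). CCR7 was followed by LINC00341 (0.20) and VASH1 (0.21), CXCR4 by CCT4 (0.087) and GGNBP2 (0.091), and CD44 by CCDC96 (0.13) and HMHA1 (0.14). The values of IL7R were nearest to those of NBPF15 (0.29) and UTP20 (0.29). ITGA4 probe 1 was nearest to NF1P2 (0.13) and LOC100133331 (0.14), probe 2 to AP3M2 (0.10) and BIRC2 (0.12), and probe 3 to PCTP (0.15) and MR1 (0.16). For IL2RG the nearest were NME4 (0.15) and PGAM1 (0.17) at probe 1 and ARID5B (0.12) and VAMP2 (0.12) at probe 2, so different probes of a gene had different neighbours.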

How the data were processed

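Per the labels and file headers, total RNA was labelled with Cy3, and the authors deposited for each array the spot intensity from Agilent Feature Extraction 10.7.7.1, with background correction inside each array but no scaling across arrays. A deposited table of log2 values, which the authors had quantile normalized, served as an alternative. The study's methods name quantile normalization, removal of low signals, limma, and a double threshold on p and log2 fold change.

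From the intensities, log2 was taken, outlier spots were set to missing, control spots removed, the 13 arrays quantile normalized and spots of a probe averaged. A probe counted as well above background on an array when more than a share of 0.5 of its spots carried that mark, and was kept when this held on all arrays of at least 1 group, which left 22751 probes of 17594 genes. All 13 arrays entered a single limma 3.58.1 model with a mean for each group (R 4.3.3, 9 residual and 3.25 prior degrees of freedom), tested two-sided and called at a Benjamini-Hochberg adjusted p under 0.05 over all kept probes. The test was also run on simulated data with independent noise on each array. Those data held no replicate, slide or session structure, so they cannot show how the test behaves where arrays deviate together. Sequences and figures were made with Python 3.11.15, pandas 2.3.3, numpy 2.4.6 and matplotlib 3.10.9. Arrays give no counts, so their number limits the precision.

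The members and the lists were chosen with earlier results of these data known. Named are all member probes, up to 3 genes of each list in each direction among those past both an adjusted p of 0.05 and an absolute log2 difference of 0.75, fixed partners whatever their value (other integrin beta chains, S1P receptors, partners of the common gamma chain, JAK1, JAK3, KLF2, FOXO1), and the 2 genes nearest to each called member. Some genes that this rule covers are not reported here. STAT5A, ACTB and GAPDH were named beside this rule after their values were seen. Equal replicate numbers deviated together (correlation of deviations from group means across probes, in CEM PA 0.46 and 0.35, in CEM RES 0.20, 0.39, 0.47 and 0.29), so the number was also used as a block. In CEM PA the arrays of number 1 shared a slide and were the only ones of the first scan session. Number and session thus cannot be told apart there. The FK866 arrays of CEM PA deviate from their mean by opposite amounts, so the correlations in that line are not independent. As alternatives the fit was repeated with 75th percentile scaling, normexp (offset 50), no filter or a filter on all 13 arrays, outlier spots kept, 1 probe per gene, the mean of a gene's probes, the deposited table, only the compared groups, slide, scan session or replicate as a block, array weights, an intensity trend, and each array left out in turn. Scan session as a fixed block within CEM PA was added after seeing the data.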

Additional observations from a re-analysis of the deposited data

How the results depend on the processing

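The count of called receptor probes between the mock-treated lines was 8 and ran from 6 to 9 over the alternatives, and the counts and stayed at 0 for FK866 in CEM RES and for the difference between the responses. In CEM PA the count for FK866 was 1, and it became 0 with no filter on dim probes, with 1 probe per gene, with the mean of a gene's probes, with only the compared groups, with slide as a block, with scan session as a fixed block and, over the arrays left out in turn, it ran from 0 to 1. With the replicate block it was 2, as CCR7 joined S1PR1 (adjusted p = 0.0276 and 0.0492 in limma). The count between the lines with FK866 was 8, and it became 5 with 1 probe per gene, which tests 9 probes, and 4 with the mean of a gene's probes, and ran from 4 to 9 over the arrays left out, with the 4 and the 5 coming from the fits without FK866 array 1 and 2 of CEM PA. ITGB1 passed between the mock-treated lines under 3 of 27 alternatives and between the FK866-treated lines under 8, the replicate block among both. Besides these calls and that of CCR7 for FK866 in CEM PA, this block changed no receptor call. Over all probes, the call count for FK866 in CEM PA was 348, against 580 with normexp, 191 with no filter, 90 with 1 probe per gene, 43 with the mean of a gene's probes, 3 with only the compared groups, 7 with slide and 1218 with replicate as a block, 1411 with array weights, 0 with session as a fixed block, and 32 at least without an array. That of the difference between the responses was 94, against 186, 56, 23 and 7 for the first 4 of these, 9 with slide and 486 with replicate as a block, 290 with array weights and 10 at least without an array. With FK866 in both lines it was 8186, and 4189 and 5017 without FK866 array 1 and 2 of CEM PA. Scaling to the 75th percentile took the share higher among called probes from 72.7% to 62.4% for FK866 in CEM PA and from 6.38% to 18.1% for the difference between the responses (17.7% with normexp). The cause was not tested.

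Over 60 receptor differences, 15 changed sign under at least 1 alternative. All of these had an unadjusted p of at least 0.330, and 0 of the 28 with an unadjusted p under 0.05 did so. Of 38 partner genes past both limits between the mock-treated lines, 31 passed under every alternative fitted and 0 changed sign. Exceptions were FOXO1, IFNAR2, IFNGR2, JAK3, PIK3CG, RUNX3 and SPNS2. With 2 arrays of CEM PA under FK866, comparisons that use them are the least precise. CCR9, near background, has no usable order between groups. Whether each probe lies in a coding exon was not annotated here.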
